A study of Mus musculus with 21 samples.

Results

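The arrays described here set pluripotent cells beside adult fibroblasts and are 9 of the 21 arrays in the whole series. They were chosen by their labelled source and comprise 3 cultures of undifferentiated induced pluripotent stem (iPS) cells, 3 cultures of undifferentiated embryonic stem (ES) cells and 3 arrays of primary adult mouse fibroblasts. The iPS cells were the line aPIG TiB7.4 at passages 5, 7 and 8, and the ES cells were the line aPIG D3 at passages 7, 9 and 10. Both lines carried the αPIG construct, in which a cardiac myosin promoter drives puromycin resistance and green fluorescent protein. They were kept undifferentiated with the cytokine LIF on a feeder layer of neomycin-resistant embryonic mouse fibroblasts whose division had been stopped with mitomycin C. The fibroblasts came from the tail tips of F1 mice of 129Sv x c57BL6 aged 8 weeks, at passages 2, 3 and 4, and served as the control for the iPS cells. Per the design text the stem cell samples were biological replicates, while the fibroblast arrays were technical replicates. Each pluripotent cell type was represented by 1 line, so line and cell type cannot be told apart, and the iPS and ES samples may contain RNA of feeder cells.

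Pluripotent cells can form every tissue of the embryo, and they hold that state through a small set of transcription factors centred on Pou5f1 (Oct4), Sox2 and Nanog, which bind one another's genes. When a fibroblast is reprogrammed, its matrix, adhesion and positional genes are shut down and this network is switched on together with epithelial junction genes. Mouse ES cells are also known for a short G1 phase, for high levels of DNA methyltransferases and for a dependence on the breakdown of threonine and glycine.

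Signals are given as background-corrected, quantile-normalized log2 intensity, on which undetected probes read about 4. Differences are pluripotent cells minus fibroblasts unless stated otherwise. A probe counted as detected on an array at a deposited detection p under 0.01. By that measure 15700 ± 166 probes were detected in iPS cells, 14477 ± 1853 in ES cells and 16039 ± 542 in fibroblasts (mean ± SD, n = 3 arrays each, of 45281 probes). Each gene was read from its probe with the highest mean signal, which gave 11474 tested genes. An offset in the normalization compresses dim signals, so folds are understated, and where a gene was detected on no array of a group its fold is a bound, written as "at least". Adjusted p-values are Benjamini-Hochberg values from limma over 21047 tested probes, and a gene was called at an adjusted p under 0.05. The fibroblast arrays entered the model as their average, 1 sample, so that the p-values rest on the spread among cultures of the stem cell lines and their derivatives. Both fibroblast comparisons share these arrays, and their values are therefore set side by side.

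The groups carried the markers of their labels. All 10 markers of pluripotent cells were detected on every iPS and ES array, against 1, 0 and 0 of 10 on the fibroblast arrays. All 15 fibroblast markers were detected on every fibroblast array, against 10 to 12 of 15 on iPS arrays and 7 to 10 of 15 on ES arrays. Some arrays stood apart from their group. Fibroblast arrays 1 and 2 correlated at 0.996 over the tested probes, while array 3 correlated with them at 0.975 and 0.977, and 386 genes lay more than 1 log2 unit from the mean of arrays 1 and 2 on array 3, against 3 genes between arrays 1 and 2. iPS culture 1 was closer to the fibroblasts (correlations of 0.781 to 0.804) than iPS cultures 2 and 3 were (0.742 to 0.766), and ES cultures ranged from 0.727 to 0.754. Where a named gene's call against fibroblasts ended or moved over 1.5 times without iPS culture 1, the value without it is given below. Calls between the lines that ended without it are listed among the flagged results.

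A majority of the tested genes differed between either line and fibroblasts. In iPS cells 3360 genes were higher and 3496 lower (59.8% of 11474 called), and in ES cells 3548 were higher and 3498 lower (61.4% called). These were 29.3% and 30.5% of tested genes in iPS cells, and 30.9% and 30.5% in ES cells. The list counts below stand beside these shares. Over probes, 5903 (28.0%) were higher and 5672 (26.9%) lower in iPS cells (55.0% of 21047 in all), and 6041 (28.7%) were higher and 5731 (27.2%) lower in ES cells (55.9% in all). With each array brought to the same median instead of the same distribution (median scaling), the median probe difference moved to -0.359 in iPS cells and -0.489 in ES cells, and the split became 1867 higher and 7538 lower in iPS cells and 1642 higher and 8465 lower in ES cells. The balance of higher and lower genes thus depended on the scaling, and the differences below are relative to the quantile scale. By detection, 481 genes were detected on all 6 pluripotent arrays and no fibroblast array, and 646 on all 3 fibroblast arrays and no pluripotent array.

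Transcription factors of the pluripotency network were higher in both lines. Of 21 listed, 19 had a probe and 16 were tested, and 14 of the 16 were higher in each line with none lower, where 29.3% of all tested genes were higher in iPS cells and 30.9% in ES cells. Their median difference was 4.62 in iPS cells and 5.00 in ES cells (4.23 and 4.56 with the 12 factors undetected in fibroblasts at their bounds), beside 0.019 and 0.0228 over all tested genes. Most of these factors were undetected in fibroblasts, so their inclusion among tested genes already required signal elsewhere.

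Pou5f1, the POU factor without which the inner cell mass does not form, read 11.01, 10.75 and 10.56 in iPS cells, 10.41, 10.59 and 10.29 in ES cells, and 4.15, 4.24 and 4.18 in fibroblasts, where no array detected it. It was at least 71.4-fold higher in iPS cells and at least 56.2-fold higher in ES cells (log2 differences 6.58 ± 0.34 SE and 6.24 ± 0.34 SE, adjusted p = 6.1e-11 and 1.2e-10). Nanog, the homeobox factor that can sustain ES cells without LIF, read 10.78, 10.94 and 10.96 in iPS cells, 11.08, 10.48 and 10.57 in ES cells, and 4.28, 4.50 and 4.27 in fibroblasts. The pluripotent and fibroblast arrays did not overlap for either gene, and Nanog was at least 77.6-fold higher in iPS cells and at least 68.3-fold higher in ES cells (adjusted p = 6.4e-10 and 8.3e-10). Sox2, the HMG-box partner of Pou5f1, read 7.76, 8.21 and 7.74 in iPS cells, 8.58, 7.62 and 8.41 in ES cells, and 4.19, 4.38 and 4.21 in fibroblasts. It was at least 9.76-fold higher in iPS cells and at least 12-fold higher in ES cells (adjusted p = 1.5e-06 and 5.1e-07), again without overlap.

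Promoter windows of Nanog, Sox2 and the zinc finger gene Zfp42 (Rex1) are shown because each holds the octamer core ATGCAAA, the letters that Pou5f1 recognizes, which in Nanog lie beside the Sox core CATTGT. They are RefSeq windows on GRCm38.p6, 5′ to 3′ on the gene's strand, from 250 bases before to 50 bases after a transcription start, with the matches on either strand in capitals. Nanog is shown at chr6:122707315-122707614 on the + strand, Sox2 at chr3:34649745-34650044 on the + strand and Zfp42 at chr8:43306960-43307259 on the - strand.
Nanog: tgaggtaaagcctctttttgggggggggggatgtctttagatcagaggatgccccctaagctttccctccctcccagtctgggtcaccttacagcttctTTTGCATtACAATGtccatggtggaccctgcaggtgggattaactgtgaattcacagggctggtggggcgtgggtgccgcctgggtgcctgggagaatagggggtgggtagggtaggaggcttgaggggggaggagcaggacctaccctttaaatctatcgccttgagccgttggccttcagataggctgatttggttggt
Sox2: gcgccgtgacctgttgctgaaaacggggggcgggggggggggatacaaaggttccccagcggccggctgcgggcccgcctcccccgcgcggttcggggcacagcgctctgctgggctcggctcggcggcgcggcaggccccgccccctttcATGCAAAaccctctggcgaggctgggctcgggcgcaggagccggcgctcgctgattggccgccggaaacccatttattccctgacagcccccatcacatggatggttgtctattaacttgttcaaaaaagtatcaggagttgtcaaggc
Zfp42: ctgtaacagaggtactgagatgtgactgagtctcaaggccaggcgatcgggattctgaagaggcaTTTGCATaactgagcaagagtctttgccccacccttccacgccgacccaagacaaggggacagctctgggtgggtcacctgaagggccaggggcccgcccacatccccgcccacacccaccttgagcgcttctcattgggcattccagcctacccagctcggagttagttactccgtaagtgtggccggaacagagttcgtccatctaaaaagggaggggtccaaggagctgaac
The octamer core starts 151 bases before the start in Nanog, 99 in Sox2 and 185 in Zfp42, and the Sox core of Nanog starts 143 bases before it. On the minus strand the Sox core is followed, after 1 base of any kind, by the octamer core, an arrangement found on either strand in 1 of 27025 genes of the table, Nanog with its 2 overlapping windows (0.00609% of windows). The octamer core alone was in windows of 1416 of 27025 genes (4.63% of all 32851 windows). By gene it was in windows of 4 of 16 pluripotency factors and 3 of 26 matrix genes, Col3a1 among them. The Sox core was in windows of 3863 of 27025 genes (12.6% of all windows), 3 of 16 pluripotency factors and 1 of 26 matrix genes. Of 48 genes looked up, 34 had a window, 13 motifs were searched on both strands, and the windows shown were picked after the matches had been seen. The other motifs, with the share of all windows that held them, were ATGCAAAT (1.74%), AACAAAG (5.85%), CAAGGTCA (1.56%), GGGTGTG (7.95%), TGACTCA (5.20%), GAGGAAG (13.6%), TATAAA (13.6%), GGGCGG (35.7%), CCAAT (37.4%) and the CArG box (1.63%). ATGCAAAT contains the octamer core, and the joined arrangement contains both cores. A match of letters is no measurement of binding.

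Esrrb, an orphan nuclear receptor and target of Nanog, read 10.85, 11.39 and 11.22 in iPS cells, 11.59, 11.63 and 11.73 in ES cells, and 4.21, 4.11 and 4.18 in fibroblasts, and was at least 92.7-fold higher in iPS cells and at least 131-fold higher in ES cells. Sall4, a zinc finger partner of Pou5f1, was at least 79.9-fold higher in iPS cells and at least 62.8-fold higher in ES cells, and Tfcp2l1, a factor downstream of LIF, at least 37.9-fold and at least 26.1-fold. The homeobox factor Otx2, known for the step towards the epiblast, was at least 53.1-fold higher in iPS cells and at least 41.1-fold higher in ES cells. Zfp42 was at least 25.9-fold higher in iPS cells and at least 73.2-fold higher in ES cells. At the low end, Prdm14, a repressor known from the germ line and ES cells, was at least 1.39-fold and at least 1.43-fold higher. Esrrb and Sall4 each had a further, dim probe near background, which was not called for Esrrb in either line (0.23 and 0.47) or for Sall4 in ES cells (0.35).

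Klf4 and the T-box gene Tbx3 were the members not called in either line. Klf4, a Krüppel-like factor used in reprogramming, read 8.88, 8.59 and 8.76 in iPS cells, 9.44, 8.11 and 8.95 in ES cells, and 8.54, 8.96 and 9.82 in fibroblasts. The groups overlapped (log2 difference -0.36 ± 0.80 SE, adjusted p = 0.75, in iPS cells and -0.27 ± 0.80 SE, adjusted p = 0.81, in ES cells), and its other tested probes were not called either. Its relatives Klf2 and Klf5 were called, Klf2 at 1.67 in iPS cells and 2.57 in ES cells and Klf5 at 4.01 and 4.04. Among the classical reprogramming factors Pou5f1 and Sox2 were thus called and Klf4 was not, while the Myc probe was detected on 1 of the 9 arrays, a fibroblast array, and was not tested.

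**Figure D1:**
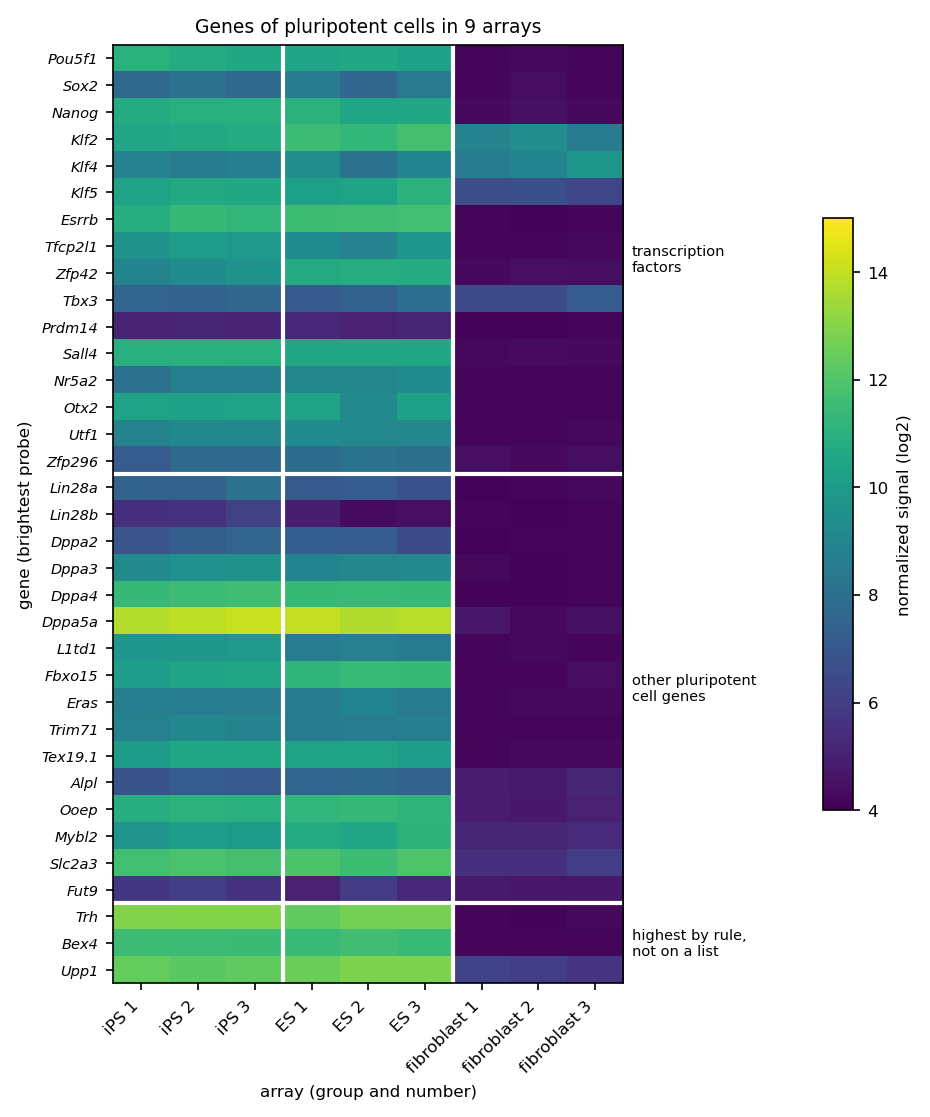
Normalized log2 signal (colour) of genes of pluripotent cells (rows) on the 3 iPS, 3 ES and 3 fibroblast arrays (columns). Most rows are high on the 6 pluripotent arrays and near 4 on the fibroblast arrays, while Klf4 is at 8.11 to 9.82 on all of them.

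Other genes typical of pluripotent cells were higher as well. Of 16 tested, all 16 were higher in iPS cells and 14 in ES cells, with medians of 5.05 and 4.71 (4.80 and 4.27 with the 10 members undetected in fibroblasts at their bounds). The inclusion of these 10 among tested genes, too, required signal elsewhere, so they could hardly be called lower. Dppa5a, an RNA-binding protein of ES cells and early embryos, read 13.73, 13.96 and 14.08 in iPS cells, 13.99, 13.68 and 13.82 in ES cells, and 4.70, 4.28 and 4.49 in fibroblasts. It was 691-fold higher in iPS cells and 649-fold higher in ES cells (log2 differences 9.43 ± 0.32 SE and 9.34 ± 0.32 SE, adjusted p = 2.3e-13 and 2.5e-13), and 1 of the 3 fibroblast arrays detected it. Dppa4, a nuclear protein that binds chromatin, was at least 120-fold higher in iPS cells and at least 110-fold higher in ES cells. Fbxo15, an F-box gene dispensable for ES cells but used as a reporter of reprogramming, was at least 52.7-fold and at least 106-fold higher. The members not called in ES cells were Lin28b, which blocks maturation of the let-7 microRNAs, at 0.41 (adjusted p = 0.4), and the fucosyltransferase gene Fut9, which makes the SSEA-1 antigen, at 0.64 (adjusted p = 0.066), which was called without ES culture 1 (0.83, adjusted p = 0.017).

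Several of the highest genes were on no list. Trh, which encodes thyrotropin-releasing hormone, read 12.93, 12.94 and 12.94 in iPS cells, 12.32, 12.69 and 12.75 in ES cells, and 4.20, 4.12 and 4.23 in fibroblasts, and was at least 319-fold higher in iPS cells and at least 251-fold higher in ES cells. Bex4, an X-linked gene of the brain-expressed family, was at least 121-fold higher in iPS cells and at least 118-fold higher in ES cells. Upp1, the uridine phosphorylase of pyrimidine salvage, was detected on all 9 arrays and was 80.7-fold higher in iPS cells and 110-fold higher in ES cells.

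Of 19 signalling genes tested, 8 were higher and 5 lower in iPS cells, and 7 were higher and 6 lower in ES cells. Over all tested genes 29.3% were higher and 30.5% lower in iPS cells, and 30.9% and 30.5% in ES cells, so the list's counts lay near the background. Members of the Nodal pathway were among those higher. Its ligand gene Nodal read 9.78, 9.72 and 9.69 in iPS cells, 7.66, 8.70 and 8.21 in ES cells, and 4.21, 4.24 and 4.26 in fibroblasts, without overlap between any groups. Lefty2, a secreted antagonist of Nodal, was at least 58.8-fold higher in iPS cells and at least 54-fold higher in ES cells, Gdf3, a related ligand, was at least 32.8-fold and at least 30.3-fold higher, and Tdgf1 (Cripto), the co-receptor, at least 7.67-fold and at least 10.3-fold higher. Members of the LIF and BMP pathways were among those lower. Il6st, the gp130 chain through which LIF signals, differed by -3.07 in iPS cells and -3.08 in ES cells, the feedback inhibitor Socs3 by -2.24 and -1.63, the transducer Stat3 by -0.74 and -0.81, and the BMP receptor Bmpr1a by -1.58 and -1.47. A second Bmpr1a probe, detected on all 9 arrays, was not called (0.15 and 0.24), nor was a second Stat3 probe (-0.52 and -0.44). Stat3 lost its call in iPS cells without iPS culture 2 (-0.68, adjusted p = 0.06) or fibroblast array 2 (-0.63, adjusted p = 0.053). Socs3 in ES cells moved to -0.90 without ES culture 2 and lost its call without fibroblast array 3 (-1.26, adjusted p = 0.087). The LIF receptor gene Lifr, detected on 5 of the 9 arrays, was not called (0.15 and 0.38). The list's median was 0.472 in iPS cells and -0.539 in ES cells, and the iPS median turned to -0.405 under median scaling.

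Regulators of DNA methylation and chromatin were higher with 1 exception. Of 18 tested, 17 were higher and 1 lower in each line, with medians of 2.51 in iPS cells and 2.61 in ES cells. Under median scaling 12 were called higher in iPS cells and 11 in ES cells. Dnmt3b, a de novo DNA methyltransferase, read 13.03, 12.93 and 13.01 in iPS cells, 11.90, 11.95 and 11.95 in ES cells, and 5.77, 5.48 and 5.65 in fibroblasts, and was 164-fold higher in iPS cells and 78.8-fold higher in ES cells. Its cofactor Dnmt3l differed by 4.85 in iPS cells and 4.68 in ES cells, and the maintenance enzyme Dnmt1 by 1.36 and 1.43. Tet1, which oxidizes 5-methylcytosine, was at least 56.2-fold higher in iPS cells and at least 34.9-fold higher in ES cells. Among Polycomb genes, the methyltransferase Ezh2 differed by 3.46 in iPS cells and 3.28 in ES cells and its partner Suz12 by 2.08 and 2.60. The exception was the histone deacetylase gene Hdac7, at least 4.75-fold lower in iPS cells and 4.72-fold lower in ES cells. The arginine methyltransferase gene Prmt6 differed by 1.33 in iPS cells and 0.86 in ES cells, its ES value turned to -0.31 under median scaling, and another of its probes was not called in ES cells (0.16).

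Genes of the germ line and early embryo were higher in 6 of 11 tested in each line, with none lower. Over all tested genes 29.3% were higher in iPS cells and 30.9% in ES cells. The 6 germ line genes were not the same in both, and 6 further listed genes were detected on none of the 9 arrays. Of the 11 tested, 10 were undetected in at least 1 group of each comparison. No fibroblast array detected more than 1 of the 17 listed, so few could have been called lower. Tdrd12, a Tudor protein that acts on germ line small RNAs, was at least 48.1-fold higher in iPS cells and at least 50.9-fold higher in ES cells. The X-linked homeobox gene Rhox5 read 9.97, 10.43 and 10.46 in iPS cells, 11.53, 11.41 and 11.32 in ES cells, and 4.13, 4.15 and 4.19 in fibroblasts, at least 50.8-fold higher in iPS cells and at least 112-fold higher in ES cells. Zp3, which encodes a protein of the egg coat, was at least 2.74-fold and at least 3.23-fold higher. Asz1, another germ line gene, was near background in all groups and not called (0.06 and 0.15).

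Epithelial genes were higher in 12 of 16 tested in each line, with none lower and medians of 3.42 in iPS cells and 2.87 in ES cells (3.40 and 2.54 with the 13 members undetected in a group at their bounds). The fibroblast arrays detected 2, 2 and 3 of the 18 with a probe, so most could hardly be called lower. Cdh1, the E-cadherin of epithelial junctions, differed by 4.44 in iPS cells and 4.76 in ES cells. Esrp1, a splicing regulator of epithelial isoforms, read 10.66, 10.85 and 10.74 in iPS cells, 9.18, 9.16 and 9.32 in ES cells, and 4.21, 4.15 and 4.15 in fibroblasts, at least 70.2-fold higher in iPS cells and at least 24.3-fold higher in ES cells. The tight junction gene Cldn6 was at least 38.8-fold and at least 17.5-fold higher, and Cldn4 was at least 22-fold and at least 20.5-fold higher. Keratin 8, encoded by Krt8, was at least 13.3-fold higher in iPS cells and at least 5.03-fold higher in ES cells. The probe for Epcam was detected on none of the 9 arrays and was not tested.

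Of 19 cell cycle genes tested, 14 were higher and 2 lower in iPS cells, and 13 were higher and 3 lower in ES cells. Of all tested genes, 29.3% were higher in iPS cells and 30.9% in ES cells. The cell cycle genes called higher fell to 11 in iPS cells and 9 in ES cells under median scaling. With that scaling the list's median moved from 2.39 to 1.496 in iPS cells and from 1.49 to 0.256 in ES cells. Mcm5, a subunit of the replicative helicase, read 11.46, 11.61 and 11.60 in iPS cells, 11.42, 11.84 and 11.53 in ES cells, and 8.05, 8.00 and 8.00 in fibroblasts, and was 11.6-fold higher in iPS cells and 11.9-fold higher in ES cells. The related Mcm2 was 11.5-fold and 10.3-fold higher, the mitotic kinase gene Aurka 11.5-fold and 14.5-fold, and the G1/S cyclin gene Ccne1 differed by 2.85 and 2.66. The members lower in both lines were Ccnd1 and Ccnd2, D-type cyclins, which couple growth signals to G1, with Ccnd1 at -1.38 in iPS cells and -2.34 in ES cells and Ccnd2 at -3.04 and -3.81, while Ccnd3 was not called (0.21 and 0.39) but was called higher in ES cells without ES culture 3 (0.48) or fibroblast array 3 (0.54). Without fibroblast array 3, Ccnd2 stood at -3.70 in iPS cells and -4.47 in ES cells. Dimmer probes of Ccnd1 and Ccnd2 were not called in iPS cells (-0.69 and -0.61). The further member lower in ES cells was Plk1, described below.

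Cell cycle inhibitors and p53 targets were lower in 7 of 11 tested and higher in 1 in each line. Over all tested genes 30.5% were lower in either line. Cdkn2b, an inhibitor of the D-cyclin kinases, read 5.33, 5.17 and 5.49 in iPS cells, 4.65, 4.37 and 4.89 in ES cells, and 9.26, 9.43 and 9.34 in fibroblasts, and was 16.1-fold lower in iPS cells and 26.1-fold lower in ES cells. Cdkn2a, which encodes p16Ink4a and p19Arf and accumulates in cultured fibroblasts, was 13-fold and 19.7-fold lower, while a dimmer probe detected on all 9 arrays was not called (-0.48 and -0.04). Cdkn1a (p21), the p53 target, differed by -1.41 and -1.68. The member that was higher was the imprinted inhibitor gene Cdkn1c, 30.8-fold in iPS cells and 18.2-fold in ES cells. For Ccng1, a p53 target, the brightest probe was lower (-0.78 and -0.79) and its other tested probes were higher.

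Among enzymes of glycine and one-carbon metabolism, 6 of 12 tested were higher and 1 lower in each line. Under median scaling 6 were called higher in iPS cells and 4 in ES cells. The list's median moved from 1.15 to 0.362 in iPS cells and from 0.933 to 0.06 in ES cells. Over all tested genes 29.3% were higher in iPS cells and 30.9% in ES cells. Gldc, the decarboxylase of the glycine cleavage system, read 11.08, 11.29 and 11.38 in iPS cells, 11.33, 11.25 and 11.58 in ES cells, and 4.20, 4.19 and 4.27 in fibroblasts, and was at least 99.2-fold higher in iPS cells and at least 109-fold higher in ES cells. Shmt1, which passes a carbon unit from serine to folate in the cytosol, was 15.6-fold and 24.1-fold higher, and the folate enzyme gene Mthfd1 6.62-fold and 5.56-fold, although a second Mthfd1 probe was not called in ES cells (-0.15). Gcat, which acts in threonine breakdown, differed by 2.46 and 2.38. Other parts of the glycine cleavage system did not share this: Amt was near background and not called (-0.19 and 0.01), and Dld, which also serves other dehydrogenase complexes, was lower (-1.06 and -1.01), a call lost in ES cells without ES culture 2 (-0.76, adjusted p = 0.076) or 3 (-0.90, adjusted p = 0.064).

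Of 17 imprinted genes tested, 7 were higher and 6 lower in iPS cells and 9 higher and 6 lower in ES cells, where 29.3% and 30.9% of all tested genes were higher and 30.5% lower in either line. The lower members were thus near the background share. Under median scaling 4 were called higher in iPS cells and 5 in ES cells. Phlda2, a maternally expressed regulator of placental growth, was at least 34.7-fold higher in iPS cells and at least 46.8-fold higher in ES cells. Peg3, paternally expressed, read 9.80, 9.56 and 9.83 in iPS cells, 7.86, 7.41 and 7.93 in ES cells, and 4.72, 4.90 and 4.48 in fibroblasts. Grb10, an adaptor that restrains insulin signalling, differed by -3.18 in iPS cells and -3.68 in ES cells.

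Extracellular matrix genes were lower almost throughout. Of 39 listed, 33 were tested, and 32 were lower with none higher in each line, where 30.5% of all tested genes were lower in either line. Their median difference was -3.58 in iPS cells and -4.52 in ES cells. The member not called was Eln, the elastin gene, detected on 1 of the 9 arrays. Lox, which crosslinks collagen and elastin, read 9.22, 6.99 and 7.01 in iPS cells, 6.93, 7.26 and 6.98 in ES cells, and 13.63, 13.99 and 13.83 in fibroblasts, and was 67.7-fold lower in iPS cells and 108-fold lower in ES cells. Without iPS culture 1 its log2 difference in iPS cells moved to -6.82, against -6.08 with it and -6.76 in ES cells. Col1a2, a chain of type I collagen, was detected on no pluripotent array and read 4.36, 4.41 and 4.54 in iPS cells, 4.17, 4.20 and 4.47 in ES cells, and 10.09, 10.20 and 10.19 in fibroblasts. Its signal was at least 45.5-fold below fibroblasts in iPS cells and at least 39.6-fold below them in ES cells. Col3a1, type III collagen, was 48.3-fold and 75-fold lower.

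Matrix proteases were lower as well. The collagenase gene Mmp13, which the matrix list did not hold, read 8.55, 7.49 and 7.65 in iPS cells, 5.48, 5.84 and 6.92 in ES cells, and 13.14, 13.08 and 12.43 in fibroblasts, and was 31.7-fold lower in iPS cells and 112-fold lower in ES cells. Mmp3, stromelysin, differed by -1.67 in iPS cells and -4.08 in ES cells. Their RefSeq promoter windows on GRCm38.p6, Mmp3 at chr9:7445572-7445871 and Mmp13 at chr9:7272264-7272563, both on the + strand, are shown because each holds TGACTCA, the letters of the AP-1 factors Fos and Jun, in capitals on either strand.
Mmp3: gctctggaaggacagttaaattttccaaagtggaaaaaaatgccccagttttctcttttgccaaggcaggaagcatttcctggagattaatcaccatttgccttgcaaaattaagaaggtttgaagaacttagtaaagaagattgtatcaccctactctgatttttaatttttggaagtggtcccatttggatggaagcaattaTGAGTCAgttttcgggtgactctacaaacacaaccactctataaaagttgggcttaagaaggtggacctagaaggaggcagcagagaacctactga
Mmp13: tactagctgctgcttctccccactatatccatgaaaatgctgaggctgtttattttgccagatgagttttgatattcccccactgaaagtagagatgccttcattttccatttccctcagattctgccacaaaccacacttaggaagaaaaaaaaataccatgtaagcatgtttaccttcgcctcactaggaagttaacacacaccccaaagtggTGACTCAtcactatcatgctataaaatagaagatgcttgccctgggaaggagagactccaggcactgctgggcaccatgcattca
The match starts 46 bases before the start in Mmp3 and 35 in Mmp13. TGACTCA was in the windows of 2 of 26 matrix genes and 1 of 16 pluripotency factors, beside 1607 of 27025 genes (5.20% of all windows).

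Surface and cytoskeleton genes of fibroblasts were lower in 22 of 24 tested in iPS cells and 23 of 24 in ES cells, with none higher and medians of -2.59 and -3.06. Anxa1, an annexin that limits inflammation, was 21.4-fold lower in iPS cells and at least 22.5-fold lower in ES cells. The calcium-binding protein gene S100a4 differed by -4.00 and -4.86, and Cav1, the coat protein of caveolae, by -3.36 and -4.78. Thy1, a surface glycoprotein of fibroblasts, differed by -3.28 in iPS cells and -3.51 in ES cells. Cdh2, N-cadherin, was detected on none of the 9 arrays.

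Mesenchymal transcription factors were lower in 13 of 17 tested in iPS cells and 15 of 17 in ES cells, with none higher. Snai2, a repressor of Cdh1, read 6.05, 4.53 and 4.92 in iPS cells, 5.41, 4.76 and 4.83 in ES cells, and 9.09, 9.54 and 9.01 in fibroblasts, 16.5-fold lower in iPS cells and 18.6-fold lower in ES cells. Zeb2, another repressor of Cdh1, was 12.5-fold and 18.9-fold lower, and the nuclear factor I gene Nfix 17.3-fold and 31.7-fold. Hox genes, which record a cell's position along the body axis, were lower in 13 of 17 tested in each line with none higher. Hoxb7 read 5.75, 4.96 and 4.94 in iPS cells, 4.45, 4.67 and 4.21 in ES cells, and 8.52, 8.35 and 8.15 in fibroblasts. The other 12 called Hox genes differed by -1.90 to -0.67 in iPS cells and by -2.04 to -0.75 in ES cells, values that depend on background, since 8 of the 17 in iPS cells and 14 in ES cells were undetected in at least 1 group of the comparison.

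Genes of MHC class I and the interferon response were lower in 8 of 14 tested and higher in 1 in each line. Over all tested genes 30.5% were lower in either line. B2m, the light chain of MHC class I, read 9.71, 8.47 and 8.53 in iPS cells, 8.86, 8.32 and 8.46 in ES cells, and 12.49, 12.55 and 12.79 in fibroblasts, and was 13.1-fold lower in iPS cells and 16.7-fold lower in ES cells. The heavy chain gene H2-D1 was 9.76-fold and 7.78-fold lower, and the interferon-induced gene Ifi27 23-fold and 40-fold. The member that was higher was the immunoproteasome gene Psmb10 (0.96 and 2.09), and its iPS value turned to -0.01 under median scaling and was not called without iPS culture 1 (0.88) or fibroblast array 3 (0.81, adjusted p = 0.059 in both). Ifitm1, a membrane protein gene, depended on the probe. Its brightest probe differed by -0.27 in iPS cells, not called, and -0.61 in ES cells, a call lost without fibroblast array 3 (-0.45, adjusted p = 0.057), while its other tested probes differed by 7.35 and 3.45 in iPS cells and by 7.06 and 3.48 in ES cells.

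The 10 lowest genes of each line included Lyz2, C1qb, Fcer1g and the chemokine gene Ccl4, which are known from macrophages and inflammation. Lyz2, the lysozyme of macrophages and neutrophils, read 5.69, 4.23 and 4.40 in iPS cells, 4.14, 4.15 and 4.40 in ES cells, and 13.40, 13.53 and 13.86 in fibroblasts, and was 452-fold lower in iPS cells and at least 429-fold lower in ES cells (log2 differences -8.82 ± 0.38 SE and -9.37 ± 0.38 SE, adjusted p = 6e-12 and 2.5e-12). Its close paralogue Lyz1 was 116-fold and 542-fold lower, and the array may not separate them. C1qb, a chain of complement C1q, was at least 119-fold lower in iPS cells and at least 104-fold lower in ES cells, and C1qc at least 74-fold and at least 64.4-fold. Fcer1g, the signalling chain of Fc receptors, was at least 85.1-fold and at least 74.1-fold lower. The chemokine genes Ccl4 and Cxcl2 were 280-fold and at least 106-fold lower in iPS cells and at least 228-fold and at least 92.1-fold lower in ES cells. Of the iPS arrays 1, culture 1, detected Lyz2 and Ccl4, and without it their log2 differences were -9.28 and -8.41. The membrane protein genes Ms4a6d and Ms4a7 and the hyaluronan-degrading Cemip completed the 10 lowest of iPS cells, and the pentraxin gene Ptx3 (at least 91.9-fold lower), Mmp13 and Lox those of ES cells. Cemip, Mmp13 and Lox act on the extracellular matrix.

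Of 8 markers listed for blood and macrophages, 6 had a probe, and all 6 were lower in both lines with a median of -5.47 in each (-5.04 in iPS cells and -4.84 in ES cells with members undetected there at their bounds). They were Lyz2, Adgre1 (F4/80), Cd14, Tyrobp, Csf1r and Ptprc, and all were detected on every fibroblast array. At most 1 of the 6 was detected on any iPS array and none on any ES array. Their summed linear signal was 119 to 153 in iPS cells, 108 to 115 in ES cells and 14137 to 19389 in fibroblasts. Macrophage transcripts therefore moved with every comparison against these fibroblasts, and their part in the other gene groups was not tested. In bulk samples fewer cells of a type and less RNA per cell cannot be told apart. Of 7 endothelial markers 2 were detected on each fibroblast array, Vwf among them, against 2 to 3 on iPS arrays and 3 to 4 on ES arrays. Cdh5, Emcn and Kdr were detected on none of the 9 arrays. Of 6 tested, 1 was higher and 1 lower in iPS cells, and 4 were higher in ES cells (2 under median scaling).

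Xist, the RNA that coats the inactive X chromosome of female cells, read 6.00, 4.54 and 4.69 in iPS cells, 4.70, 4.16 and 4.18 in ES cells, and 10.16, 10.08 and 8.50 in fibroblasts. It was 22.7-fold lower in iPS cells and 37.6-fold lower in ES cells, and its other tested probes were lower too. The Y-linked gene Eif2s3y, a translation factor subunit, read 8.19, 8.18 and 8.40 in iPS cells, 8.93, 8.11 and 8.44 in ES cells, and 6.30, 6.49 and 6.72 in fibroblasts, and was detected on all 9 arrays. The fibroblast arrays thus gave signal for both, and the labels give neither the sex nor the number of the mice. The differences of 1.75 in iPS cells and 1.99 in ES cells for Eif2s3y were no longer called under median scaling (0.82 in each).

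**Figure D2:**
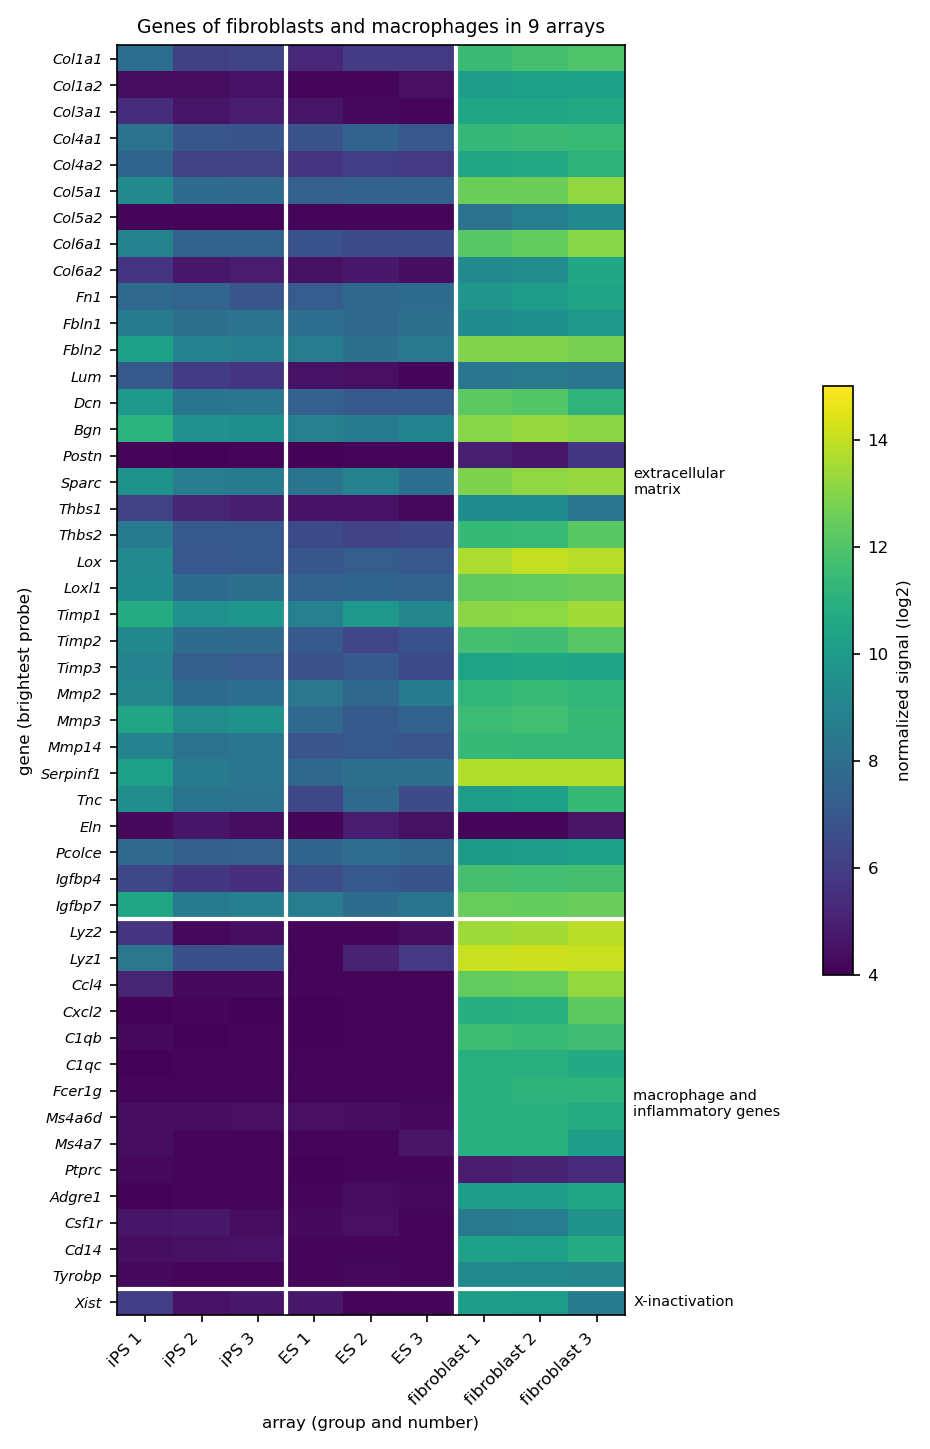
Normalized log2 signal (colour) of matrix genes, macrophage and inflammatory genes and Xist (rows) on the 3 iPS, 3 ES and 3 fibroblast arrays (columns). Macrophage genes are near 4 on most pluripotent arrays, while many matrix genes keep an intermediate signal there, as Lox does at 6.93 to 9.22.

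The matrix signal left in pluripotent cultures varied between cultures of the same line. Among the iPS cultures, culture 1 was the highest for 29 of 33 matrix genes (87.9%) and 21 of 24 surface and cytoskeleton genes (87.5%), against 34.2% of all tested genes. The median matrix gene was 1.38 log2 units higher in culture 1 than in the mean of cultures 2 and 3. The summed linear signal of the 15 fibroblast markers was 3764, 1433 and 1441 in iPS cells, 1124, 1113 and 1202 in ES cells, and 32982, 38177 and 39584 in fibroblasts. Culture 1 was the lowest of the iPS cultures for 10 of 16 pluripotency factors and 13 of 19 cell cycle genes. It was also the lowest for 4849 of all 11474 tested genes. Feeder fibroblasts were present in the culture of both lines, and their part in these values was not tested.

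**Figure D3:**
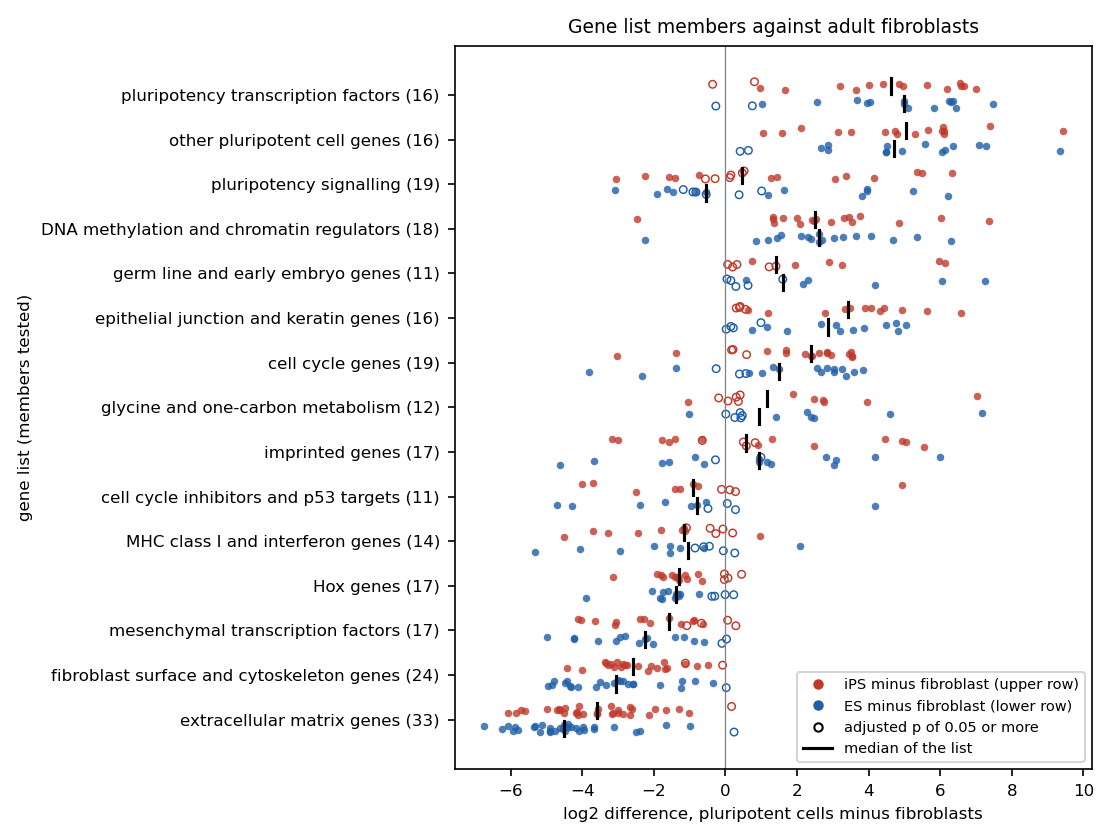
Log2 difference from fibroblasts of each tested member of the gene lists, for iPS cells and for ES cells, with filled points for adjusted p under 0.05, open points for the rest and a bar at the median of each list. Median differences run from 5.05 in iPS cells for other pluripotent cell genes to -4.52 in ES cells for matrix genes.

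The lines were then compared with each other, as iPS minus ES, which no fibroblast array enters. Of 11474 genes, 1150 were higher and 1352 lower in iPS cells (21.8% called), and of 21047 probes 4120 differed (19.6%), 1993 higher (9.47%) and 2127 lower (10.1%). The probe count depended on the processing: it was 759 under median scaling, with 592 higher and 167 lower, and 2588 when the differentiated groups were left out of the fit. Of 16 pluripotency factors, Sall4 was higher in iPS cells (0.35), and Zfp42 (-1.50) and Klf2 (-0.90) were lower. Over all tested genes 10.0% were higher and 11.8% lower, so the counts of this list lay near the background. Sall4 lost its call with any of the 6 cultures left out (adjusted p = 0.073 to 0.12), and Klf2 with any but ES culture 2 (adjusted p = 0.063 to 0.13). Zfp42 read 8.97, 9.35 and 9.61 in iPS cells and 10.77, 10.86 and 10.81 in ES cells, without overlap. Pou5f1 (0.34 ± 0.24 SE), Nanog (0.18 ± 0.28 SE), Sox2 (-0.30 ± 0.30 SE) and Esrrb (-0.50 ± 0.46 SE) were not called, which does not show that their levels were equal.

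Genes most above ES cells in iPS cells included growth factors and transcription factors of the epiblast and early germ layers. Fgf5, a marker of the epiblast after implantation, read 9.36, 8.76 and 8.66 in iPS cells, 4.74, 5.10 and 5.01 in ES cells, and 5.82, 6.03 and 5.76 in fibroblasts. It was 15.7-fold higher in iPS than in ES cells (log2 difference 3.98 ± 0.37 SE, adjusted p = 1.2e-06), and ES cells did not differ from fibroblasts by the test. Fgf8, a growth factor of the primitive streak, read 9.06, 8.17 and 8.30 in iPS cells and 4.44, 4.42 and 4.51 in ES cells, where no ES array detected it, at least 12.6-fold higher. Lhx1, a LIM homeobox gene of the anterior mesendoderm, read 8.51, 6.78 and 7.06 in iPS cells and 4.21, 4.21 and 4.17 in ES cells, at least 6.07-fold higher, with iPS culture 1 the highest. Olig1, a transcription factor of oligodendrocyte precursors, read 9.74, 9.36 and 9.51 in iPS cells and 5.03, 4.43 and 4.76 in ES cells, 27.8-fold higher (adjusted p = 2.5e-11).

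Some neighbours in these pathways differed too. Nodal was 2.91-fold higher in iPS cells, and Eomes, a T-box gene that responds to Nodal, differed by 1.87, while Lefty1 (0.19), Lefty2 (0.12) and Gdf3 (0.11) were not called. Dusp6, a phosphatase induced by fibroblast growth factor signalling, differed by 1.01. The cleavage-stage gene Zscan4c differed by 2.26. Of 17 imprinted genes tested, 3 were higher and 1 lower, where 10.0% of all tested genes were higher and 11.8% lower. Peg3 was 4-fold higher and Igf2 differed by 1.37, while the RNA gene Rian was lower (-1.49). Phlda2 (-0.43) and Cdkn1c (0.76) were not called.

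Genes most below ES cells in iPS cells were led by Xlr4a, an X-linked gene of the Xlr family, which read 6.05, 6.35 and 6.45 in iPS cells and 9.67, 9.13 and 9.43 in ES cells, 8.74-fold lower (adjusted p = 9e-09). Khdc3, part of a maternal complex of the oocyte, was 6.21-fold lower, and Aurkc, an Aurora kinase of meiosis, 6.16-fold lower. The enzyme genes Cela2a, an elastase, Liph, a lipase, and Sult6b1, a sulfotransferase, were 7.67-fold, 7.47-fold and 6.12-fold lower. Rhox5 was 2.2-fold lower, and Pecam1, an adhesion molecule of endothelium and ES cells, differed by -2.05. In all of these the iPS and ES cultures did not overlap, a condition by which all but Rhox5 and Pecam1 had been chosen.

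Some matrix and fibroblast genes were higher in iPS than in ES cells. Of 33 matrix genes 11 were higher and 1 lower in iPS cells, and of 24 surface and cytoskeleton genes 9 were higher and 1 lower, where 10.0% of all tested genes were higher and 11.8% lower. The protease gene Mmp3 differed by 2.42, with Lum, a collagen-binding proteoglycan, at least 2.57-fold higher, and Tnc, a matrix glycoprotein, at 1.70. Tnc lost its call without iPS culture 1 (1.30, adjusted p = 0.086), ES culture 1 (1.42, adjusted p = 0.068) or ES culture 3 (1.53, adjusted p = 0.062). Without iPS culture 1, 8 matrix genes and 3 surface genes were called higher, and without ES culture 3, 8 and 5. The surface genes called higher numbered 3 under median scaling and 2 with the 9 arrays alone. Among lineage markers, 3 of 8 primitive endoderm genes were higher in iPS cells, and these calls were lost without iPS culture 1, under median scaling and with the 9 arrays alone. Of 4 tested keratinocyte genes 2 were higher, and 1 with iPS culture 2 or 3 or ES culture 1 or 3 left out or under either of those settings. Of 6 endothelial genes 3 were lower.

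Of 5998 genes called in both fibroblast comparisons, 19 went in opposite directions, and of the listed genes these were Plk1 and Vwf. Both comparisons subtract the same fibroblast average, which favours calls in the same direction. The count is therefore no measure of how alike the lines were. Plk1, a kinase of mitotic entry, read 8.73, 9.23 and 8.79 in iPS cells, 4.84, 4.65 and 4.66 in ES cells, and 6.15, 5.86 and 6.23 in fibroblasts, and was 18.4-fold higher in iPS than in ES cells. Cops8, a subunit of the COP9 signalosome, read 8.41, 8.56 and 8.50 in iPS cells, 4.60, 4.13 and 4.24 in ES cells, and 8.12, 7.97 and 8.28 in fibroblasts, 18-fold higher in iPS than in ES cells. Each of the pair rests on 1 tested probe. For Mcm6, another helicase subunit, the brightest probe averaged 10.60 in iPS cells, 10.76 in ES cells and 8.21 in fibroblasts, while another probe averaged 9.35, 4.71 and 7.68 in the same order. Vwf, von Willebrand factor of endothelium, was near background at 4.51 in iPS cells, 5.56 in ES cells and 5.02 in fibroblasts on average, and its ES difference of 0.54 turned to -0.16 under median scaling and was not called without ES culture 3 (0.37, adjusted p = 0.06). Its iPS difference of -0.51 was not called without iPS culture 1 (-0.45, adjusted p = 0.068) or fibroblast array 1 (-0.44, adjusted p = 0.058).

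**Figure D4:**
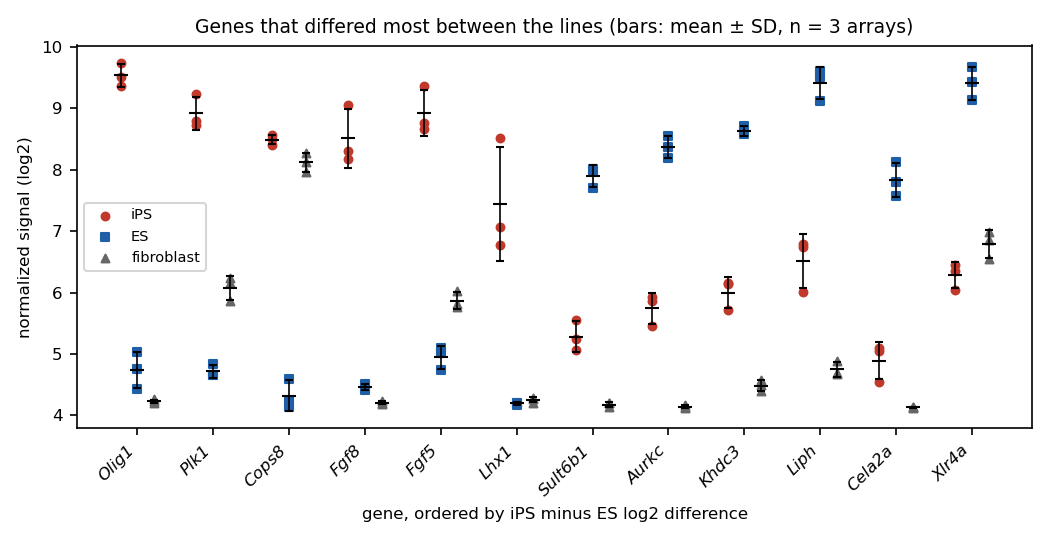
Normalized log2 signal on each array, with mean and SD, of the 6 genes most above and the 6 most below ES cells in iPS cells, for iPS cells, ES cells and fibroblasts. The iPS and ES points do not overlap, as the rule for choosing these genes required. The ES points of Plk1 (4.65 to 4.84) and Cops8 (4.13 to 4.60) lie below the fibroblast points.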

How the data were processed

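Total RNA of 21 samples was hybridised to Illumina mouse bead arrays in single colour, of which 9 arrays are described here. Per the file headers, the deposited non-normalized table holds an average signal intensity and a detection p-value for each of 45281 probes and each array. The scanner software and its background setting are not given in the sources used here. A second table that the authors deposited holds quantile-normalized intensity on a linear scale. Its row identifiers do not pair with those of the first table: by identifier the 2 tables correlated at -0.00232 to 0.00744, while every row could be matched by its values. Pairs of probes of the same gene correlated at a median of 0.781 (9336 pairs) under the identifiers of the non-normalized table and 0.273 (7103 pairs) under the others, so the identifiers of the non-normalized table were used. The platform annotation gave 1 gene symbol for 34885 probes, several for 18 and none for 10378.

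Background correction with the detection p-values, an offset of 16 and quantile normalization over all 21 arrays were done with neqc of limma 3.58.1 in R 4.3.3, followed by lmFit, contrasts and eBayes. Tested were 21047 probes detected on at least 3 of 21 arrays. The model held a mean for each of the 7 groups of the series over 19 samples, with the 3 fibroblast arrays averaged into 1, leaving 12 residual degrees of freedom. Calls were made at an adjusted p of 0.05 after Benjamini-Hochberg adjustment. The code was tested on simulated data. Other settings tried concerned the scaling, background correction, offset, detection filter, groups in the fit, treatment of the fibroblast arrays, replicate blocks and each array left out. The number of arrays limits the precision of all values.

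Samples of the same replicate number did not deviate together (correlations of -0.131 to 0.21), so the numbers were not taken as pairs. Genes were named by a rule: among called genes whose arrays did not overlap, the 10 highest and 10 lowest of each fibroblast comparison and the 6 highest and 6 lowest between the lines, then from each list the 3 largest and the smallest difference from fibroblasts and any member called in opposite directions. Other genes in the text were chosen for their role after their values were seen. The members and the lists were chosen with earlier results of these data known.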

Additional observations from a re-analysis of the deposited data

Results flagged for a closer look

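The difference from fibroblasts differed between the lines, by the test of iPS minus ES, for 4120 probes. Log2 differences of iPS minus ES, each tested in the same fit, are given for the genes of the text that passed; where a gene was undetected in a line, its value depends on background. Higher in iPS cells were Olig1 by 4.79, Plk1 by 4.20, Cops8 by 4.17, Fgf8 by 4.06, Fgf5 by 3.98, Lhx1 by 3.26, Mmp3 by 2.42, Zscan4c by 2.26, Lyz1 by 2.22 and Peg3 by 2.00. Smaller differences in the same direction were 1.87 for Eomes, 1.82 for Mmp13, 1.82 for Lum, 1.70 for Tnc, 1.54 for Nodal, 1.53 for Esrp1, 1.42 for Cav1, 1.40 for Krt8, 1.37 for Igf2, 1.17 for Lin28b, 1.15 for Cldn6 and 1.01 for Dusp6. Below 1 log2 unit were Ccnd1 at 0.96, S100a4 at 0.86, Hoxb7 at 0.77, Ccnd2 at 0.77, Tet1 at 0.69, Cdkn2b at 0.69, Prmt6 at 0.46 and Sall4 at 0.35. Lower in iPS cells were Xlr4a at -3.13, Cela2a at -2.94, Liph at -2.90, Khdc3 at -2.63, Aurkc at -2.62, Sult6b1 at -2.61, Pecam1 at -2.05, Zfp42 at -1.50, Rian at -1.49, Rhox5 at -1.14, Psmb10 at -1.14, Vwf at -1.05 and Fbxo15 at -1. The remaining lower values were -0.90 for Klf2, -0.63 for Shmt1, -0.52 for Suz12 and -0.43 for Tdgf1. These values are from the brightest probe of each gene. Of 231 other tested probes of named and listed genes, 47 differed from it in their call between the lines. None of the 231 was called the other way. The other tested probes of Lyz1 (0.03 and -0.01) and Mmp13 (0.34 and 0.04) were near background in both lines and not called. Without iPS culture 1 the calls of Ccnd2 (0.36, adjusted p = 0.25), Krt8 (1.29, adjusted p = 0.09) and Hoxb7 (0.51, adjusted p = 0.066) were lost. The same held for Fbxo15 (-0.89, adjusted p = 0.092), Suz12 (-0.46, adjusted p = 0.13) and Tdgf1 (-0.44, adjusted p = 0.061). Sall4, Klf2 and Tnc also lost theirs, as given above. With another culture left out, Tet1, Prmt6 and Cldn6 lost theirs. Groups of 3 arrays are too small for a test of single outlying arrays.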

How the results depend on the processing

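For the genes named by the rule or in the text, 426 results were recomputed under the alternatives. Of these 8484 values, 8262 kept their side of the threshold without a reversal, and 144 lost and 75 gained a call. Many of these genes were chosen for large differences, so the total does not describe all tested genes. The other 3 reversed, all under median scaling: Prmt6 in ES cells (-0.31), Vwf in ES cells (-0.16) and Psmb10 in iPS cells (-0.01). A change of sign counted as a reversal only where the value was called in either fit. Leaving out a fibroblast array cannot move a difference between the lines, and those values are in the total. The authors' table gave the same probe counts as the setting without background correction. Counts of called members kept within 1.5 times of the reported count in 1560 of 1701 cases. The probe count between iPS and ES cells was 759 under median scaling, 2588 with only the 9 arrays and 2611 with a replicate block on the same arrays, where the last 2 fits had fewer samples, and the cause of the first was not tested. In these fits the matrix genes called higher in iPS cells numbered 9, 4 and 6, and the surface and cytoskeleton genes 3, 2 and 5. With arrays left out in turn, the probe counts ranged from 10864 to 11951 for iPS cells against fibroblasts, 11447 to 11904 for ES cells against fibroblasts and 3141 to 4162 between the lines. At a detection p under 0.05, 18187 probes were detected in iPS cells, 17314 in ES cells and 18493 in fibroblasts. The spread among arrays of a group (main values 0.2121, 0.2804 and 0.2629 log2 units in iPS cells, ES cells and fibroblasts) was 0.1559, 0.2059 and 0.2052 without background correction. A slide block was not run, since the headers give no slides. Low signal limits genes near background, for which folds are bounds.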

Other observations

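The probe of Plk1 averaged 8.92 in undifferentiated cells, 8.34 in embryoid bodies and 6.03 in cardiomyocytes of the iPS line, against 4.72, 4.44 and 4.27 in the same groups of the ES line, where it was near background. The probe of Cops8 averaged 8.49, 8.52 and 9.37 in those groups of the iPS line, against 4.32, 4.28 and 5.06 for the ES line. A probe of Mcm6 averaged 9.35, 9.47 and 7.16 for the iPS line, against 4.71, 4.44 and 4.18 for the ES line, whereas a further probe of the gene averaged 9.76 in undifferentiated iPS cells and 9.72 in undifferentiated ES cells. Of 10484 probes detected on all 9 iPS-line and all 3 fibroblast arrays, 33 were detected on at most 1 of 9 ES-line arrays. In reverse, of 9637 probes on all ES-line and fibroblast arrays, 2 were on at most 1 iPS-line array. The 33 probes covered 23 genes, of which 14 had another detected probe and 7 had one detected on all 9 ES-line arrays. Plk1, Cops8 and Mcm6 were not among the 23, since their probes were detected on more ES-line arrays. These genes were picked after their values were seen, and the cause was not tested.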
